A study of Mus musculus with 7 samples.

Results

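The *Sox2* locus was described in the peaks of chromosome 3 that overlapped a stretch of 240 kb around *Sox2*, from 34440000 to 34680000. The members were chosen by position alone, and 63 of the 238420 peaks in the 6 lists were in the stretch. The peaks came from ChIP-seq of immortalized multipotent otic progenitor (iMOP) cells, a mouse line made from SOX2-expressing inner ear progenitors with a *c-Myc* retrovirus. Every sample thus came from cells into which C-MYC had been introduced, and no sample served as an untreated control. The paper on this line reports that the retrovirus was apparently silenced later, with most *c-Myc* transcript then endogenous. ChIP-seq pulls down the DNA a protein sits on, reads it as short tags, and reports as peaks the places where tags pile up above background. The cells were grown as floating otospheres in DMEM/F12 with B27 and 20 ng/ml of bFGF, and 3 antibodies were used with 2 biological replicates each. They recognised RNA POLII (clone 4H8), C-MYC (N-262) and SOX2 (clone 6F1.2). The input DNA sample was not analysed here. Positions are those of the deposited lists, which GEO's processing notes place on the mouse build mm9, and *Sox2* was taken at chr3:34548927-34551382. Peaks hold no measure of RNA, so the otic identity of the cells was not checked.

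SOX2 is a transcription factor with an HMG box that binds short DNA motifs and helps maintain embryonic and neural stem cells. The paper proposes that with *Myc* genes it promotes proliferation of inner ear precursors, and alone may help keep some cochlear cells quiescent. C-MYC binds E-box motifs together with its partner MAX, mostly at promoters that already carry RNA polymerase. *Sox2* is a gene with a single exon inside the span of a long noncoding RNA gene, *Sox2ot*, and its transcription in different tissues depends on enhancers spread along both flanks. The enhancers SRR1 and SRR2 lie close to the gene on either side. A distal control region far downstream drives *Sox2* in embryonic stem cells. In the RefSeq annotation of GRCm38.p6, the next protein-coding genes are *Dnajc19* before and *Atp11b* after *Sox2*, and the span of *Sox2ot* also holds *Mir1897* and *Gm42205*. No annotation of mm9 was used here, so the peaks were placed by their distance to *Sox2* alone, and no peak was assigned to a named enhancer.

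The *Sox2* promoter is shown because 5 of the 6 lists had a peak over it. It is printed from 250 bases before to 50 bases after the start in RefSeq, at chr3:34649745-34650044 on the plus strand of GRCm38.p6, whose positions are not those of the peaks. Capitals mark motifs that were searched on both strands, and no marked motifs overlap.
*Sox2* promoter: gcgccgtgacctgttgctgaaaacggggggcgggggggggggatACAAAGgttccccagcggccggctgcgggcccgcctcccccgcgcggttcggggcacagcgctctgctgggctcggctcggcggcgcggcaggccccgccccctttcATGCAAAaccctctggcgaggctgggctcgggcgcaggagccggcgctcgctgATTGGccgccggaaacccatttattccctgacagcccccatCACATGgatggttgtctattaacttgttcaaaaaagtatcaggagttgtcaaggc
The SOX core ACAAAG began 206 bases before the start and is present in 18.7% of the 32851 mouse promoters of the same length. The E-box variant CACATG, 5 bases before the start, is present in 14.2% of them. The octamer core ATGCAAA, bound by POU factors, lay 99 bases before the start and is in 4.63% of promoters. A CCAAT box on the minus strand lay 46 bases before the start, and 37.4% of promoters hold this motif. The second SOX core searched, ACAATG, and the E-box CACGTG were not in these letters, and they are in 12.6% and 7.15% of promoters. The sequence was 66.3% G and C with 27 CpG dinucleotides, against medians of 52.7% and 7 over all promoters. A match to such short motifs is a description of the sequence and not a binding site.

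Each list had between 26637 and 53528 peaks, and the tags inside peaks summed to between 1705241 and 4488517. Total reads were not analysed here, so the tags in a peak were divided by the tags in all peaks of the same list and multiplied by 1000000 (scaled tags). The fold enrichment of a peak is its linear ratio over the background as the authors deposited it, and no list holds a peak with a p-value above 1e-05. POLII replicate 1 stood apart, since 24.0% of its peaks overlapped a peak of any other list, against 86.3% for POLII replicate 2, 90.5% and 88.6% for C-MYC, and 80.8% and 84.6% for SOX2. At the locus, 8 of 9 peaks of POLII replicate 1 overlapped another list. The counts were 9 of 11 for POLII replicate 2, 8 of 10 and 10 of 11 for C-MYC, and 12 of 13 and 7 of 9 for SOX2. Counts and differences that need both POLII replicates are also given from POLII replicate 2 alone.

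The lists were read for the places around *Sox2* that C-MYC, SOX2 and POLII occupied in these cells. The 63 peaks at the locus numbered 9 and 11 for POLII replicates 1 and 2, 10 and 11 for C-MYC, and 13 and 9 for SOX2. Of these peaks, 36 lay upstream of *Sox2*, 6 overlapped the gene and 21 lay downstream. Peaks that shared at least 1 bp were merged across lists, which gave 25 regions. A region was called for an antibody when both replicates had a peak in it. C-MYC was called in 8 regions, SOX2 in 7 and POLII in 5. Over the 115440 merged regions of the genome, the shares called were 30.8% for C-MYC, 14.4% for SOX2 and 4.72% for POLII, against 32.0%, 28.0% and 20.0% of the 25 regions at the locus. The share for C-MYC was near that of the genome when the merged regions of all 6 lists were counted, lone peaks of POLII replicate 1 included. Taken by themselves, POLII replicate 2 had a peak in 11 regions (44.0%, genome 27.3%) and POLII replicate 1 in 9 (36.0%, genome 46.3%). The POLII difference thus depended on which replicates were required. Regions of a lone replicate 1 peak count in the genome's total and hold no replicate 2 peak, which lowers the 27.3%. An excess for replicate 2 alone therefore cannot be read from these shares. C-MYC and SOX2 were both called in 5 regions (20.0%, genome 12.6%), and 3 regions had a peak in all 6 lists (12.0%, genome 2.25%). A peak in the other 5 lists, with or without one of POLII replicate 1, was found in 4 regions (16.0%, genome 11.3%). A further 9 regions had a peak of a single list, with 15 to 136 tags (36.0%, genome 57.0%). The genome's merged regions include the peaks of POLII replicate 1 that met no other list, and only 12868 of its 53528 peaks met one. At the locus 8 of its 9 did. In the genome this lowers the shares called for an antibody, held by a list other than POLII replicate 1 or found in several lists, here and below. It raises the share of single lists. Genome shares without this list were not computed. How far the locus differed from the genome, and for some shares in which direction, therefore cannot be read from these values. These shares are a description of neighbouring peaks at a single locus, and no test was made of them.

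**Figure D1:**
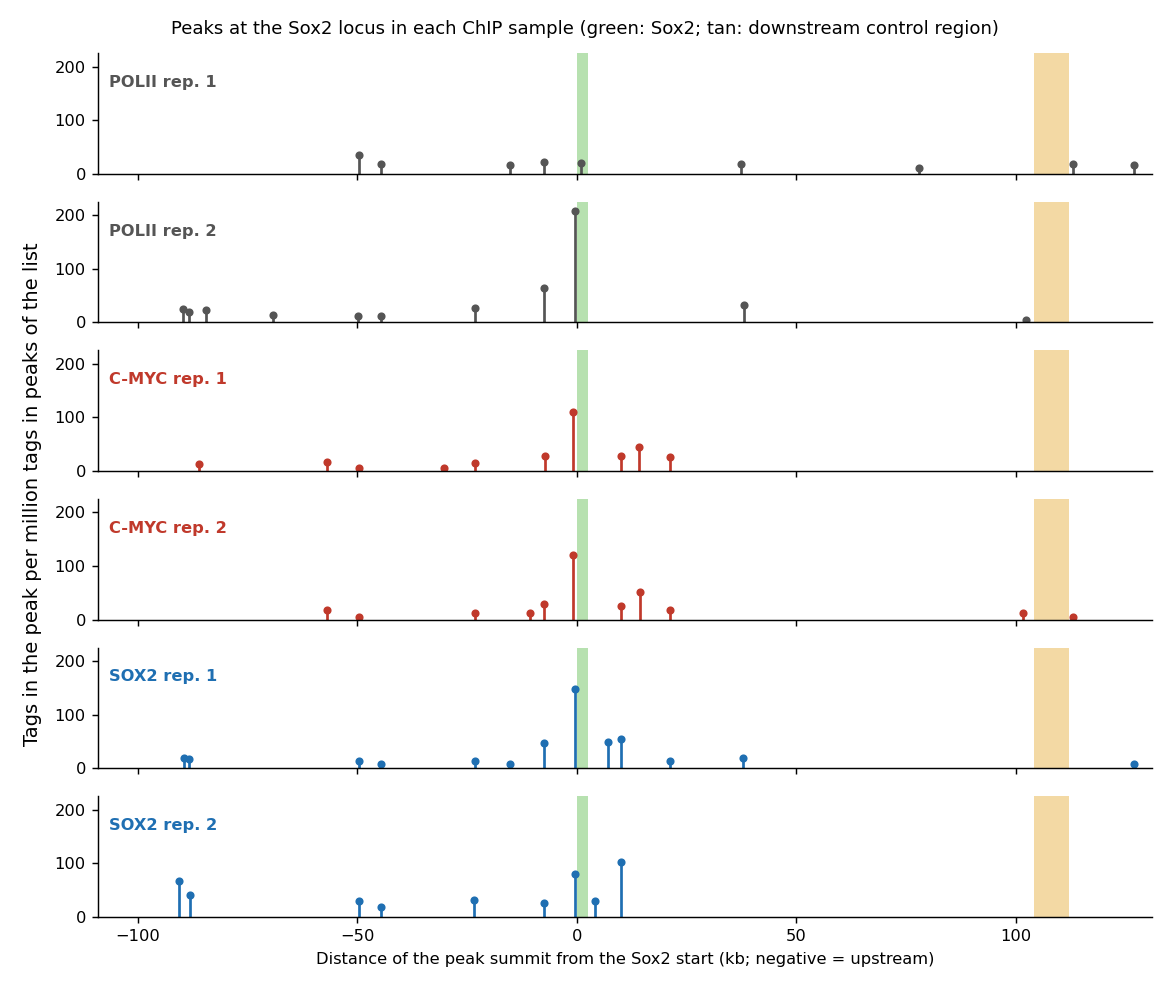
Peaks at the *Sox2* locus by sample. The x axis is the distance of each summit from the *Sox2* start in kb and the y axis the scaled tags of the peak (per 1000000 tags in peaks of that list), with a row for each replicate and a line for each peak. The tallest line lies at the start of *Sox2* in POLII replicate 2, both C-MYC replicates and SOX2 replicate 1, and no line lies within the downstream control region (tan).

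At *Sox2* itself, all 6 lists had a peak, and these merged into a single region, chr3:34546600-34550514, which reached from 2.33 kb upstream of the start to 1.59 kb into the gene. POLII replicate 2 held 934 tags there, in a peak of 3.92 kb, or 208 scaled tags. POLII replicate 1 held 36 tags in 0.793 kb, or 21.1 scaled tags. The scaled tags of the POLII replicates therefore differed by 9.86 times at the gene, as sums over peaks of 3.92 and 0.793 kb and not per kb. Over the 5445 regions called for POLII, the median ratio of replicate 2 to replicate 1 was 1.13. This median is an offset between the replicates and does not measure how far they usually differed. C-MYC held 313 and 383 tags, or 109 and 121 scaled tags (115 ± 8.49, SD, n = 2). SOX2 held 405 and 144 tags, or 147 and 80.7 scaled tags (114 ± 46.8, SD, n = 2). In these sums the C-MYC values lay between the SOX2 values, and the SOX2 replicates differed more than the antibodies did. The SOX2 peaks were 2.96 and 1.57 kb long and the C-MYC peaks 1.57 and 2.48 kb. Tags per kb were not compared here, so the sums do not show how well the replicates matched in density.

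The peak at *Sox2* was large in tags and length but not in enrichment. Only 157 of the 31796 peaks of POLII replicate 2 held more tags, and the C-MYC and SOX2 peaks stood at or above 93.5% to 99.3% of the peaks of their lists in tags. The POLII replicate 1 peak stood at 75.9%. Its fold enrichment was 5.54 and 5.63 in POLII, 6.44 and 5.92 in C-MYC, and 5.49 and 6.62 in SOX2. Those values were at or above only 6.45% to 20.0% of the peaks in 5 of the lists and 50.2% in SOX2 replicate 2. In length, the peak stood at or above 91.0% to 99.6% of peaks in the same lists other than POLII replicate 1, where it stood at 75.4%.

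The summits at the gene did not coincide. Both SOX2 summits and that of POLII replicate 2 lay 0.450 to 0.496 kb upstream of the start, and the C-MYC summits 0.963 and 0.947 kb upstream. The mean summit of C-MYC was 482 bp from that of SOX2, while the replicates were 16 bp apart for C-MYC and 46 bp apart for SOX2. The summit of POLII replicate 1 lay 0.998 kb inside the gene, and this peak covered no base of the promoter window of 300 bases. The other 5 peaks covered all of it. The POLII signal over the promoter window therefore rests on replicate 2 alone.

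**Figure D2:**
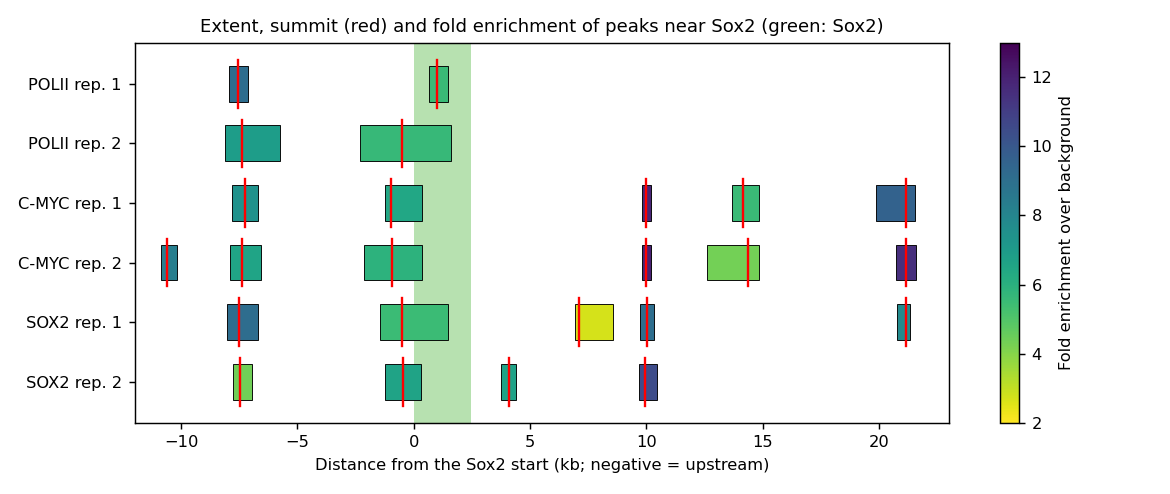
Peaks near *Sox2*. The x axis is the distance from the *Sox2* start in kb, each bar spans a peak, its colour is the fold enrichment and the red line is the summit, with a row for each sample. At 9.996 kb downstream the C-MYC and SOX2 peaks have a fold enrichment of 9.05 to 12.01 and no POLII peak is drawn, while the peaks at the start are broader, with a fold enrichment of 5.49 to 6.62.

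Upstream, the nearest region in all 6 lists was chr3:34540806-34543168, with a median summit 7.43 kb before the start. POLII held 38 and 291 tags there, or 22.3 and 64.8 scaled tags. C-MYC held 80 and 91 tags, or 28.0 and 28.9 scaled tags (28.4 ± 0.624, SD, n = 2). SOX2 held 132 and 47 tags, or 47.9 and 26.3 scaled tags (37.1 ± 15.2, SD, n = 2). The C-MYC values again lay within the range of the SOX2 values, and SOX2 replicate 1 was higher than replicate 2, as at the gene. The 6 summits fell within 267 bp, and those of C-MYC and SOX2 within 230 bp. The fold enrichment ran from 4.39 in SOX2 replicate 2 to 9.11 in SOX2 replicate 1.

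Another region in all 6 lists, chr3:34498341-34499630, lay 49.7 kb upstream, and its 6 summits fell within 98 bp. C-MYC held few tags there, 17 and 18, with a fold enrichment of 10.21 and 8.11. SOX2 held 35 and 51 tags and POLII 59 and 58. In scaled tags the SOX2 replicates, at 12.7 and 28.6, were both above the C-MYC replicates, at 5.95 and 5.71. By score (10 times the −log10 of the p-value), 2678 of the 53528 peaks of POLII replicate 1 were above the one here, and 15816 were above its peak at the gene. Between this region and the gene, a region 23.2 kb upstream was called for C-MYC and SOX2 and had a peak in POLII replicate 2 only. C-MYC held 44 and 40 tags and SOX2 38 and 56 tags there, and the 4 summits fell within 101 bp.

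SOX2 was called without any C-MYC peak in 2 of the 25 regions, both upstream (8.0%, genome 1.14%). At chr3:34503891-34504832, which lay 44.6 kb upstream, SOX2 held 23 and 31 tags and POLII 30 and 57 tags, and no C-MYC peak was present. The 4 summits fell within 37 bp, and 3 of them were at the same base, 34504281. The SOX2 peaks there were among the weakest of their lists, at or above 3.46% and 0.74% of peaks by score. At 88.2 kb upstream, SOX2 held 46 and 71 tags and POLII replicate 2 held 90 tags. The nearest C-MYC peak, 1.47 kb farther on towards the gene, was of C-MYC replicate 1 only and held 39 tags. POLII replicate 2 and SOX2 replicate 1 shared a further region 89.6 kb upstream, with 112 and 50 tags. C-MYC was called without any SOX2 or POLII peak in 2 of the 25 regions (8.0%, genome 6.41%), and one of them lay at 56.8 kb upstream, with 49 and 58 tags and summits 14 bp apart. C-MYC replicate 2 alone had a peak of 40 tags at 10.6 kb upstream.

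Downstream, the region with the highest scores for SOX2 was chr3:34558619-34559371, with a median summit 9.996 kb from the start. SOX2 held 149 and 182 tags there, or 54.0 and 102 scaled tags (78.0 ± 33.9, SD, n = 2). C-MYC held 81 tags in each replicate, or 28.3 and 25.7 scaled tags (27.0 ± 1.87, SD, n = 2). Both SOX2 values were above both C-MYC values, which was the case for 2 of the 5 regions called for both factors and for 32.9% of such regions in the genome. The reverse order was found in 0 of the 5 and in 15.6% of the genome's. The 4 summits fell within 82 bp, and the mean summits of C-MYC and SOX2 were 3.0 bp apart. Neither POLII replicate had a peak in this region. It was the only region at the locus called for both factors without any POLII peak (1 of 25), a combination found in 1.08% of the genome's merged regions.

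The peaks of this downstream site were shorter and more enriched than those of the same samples at the gene. Their lengths were 0.398 and 0.386 kb for C-MYC and 0.623 and 0.753 kb for SOX2. The fold enrichment was 11.80 and 12.01 for C-MYC and 9.05 and 10.47 for SOX2, the highest of the locus in 3 of these 4 lists. By score, only 270 of the 26637 peaks of SOX2 replicate 2 were higher. The C-MYC peaks stood at or above 91.1% and 91.4% of their lists by score, and SOX2 replicate 1 at 87.0%. SOX2 replicate 2 had more tags here than at the gene, 182 against 144, whereas SOX2 replicate 1 and both C-MYC replicates had fewer here than at the gene. Which site held more SOX2 tags in sum therefore depended on the replicate, and the SOX2 peaks at the gene were longer, at 2.96 and 1.57 kb. Fold enrichment and score were higher at the downstream site than at the gene in both SOX2 replicates.

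**Figure D3:**
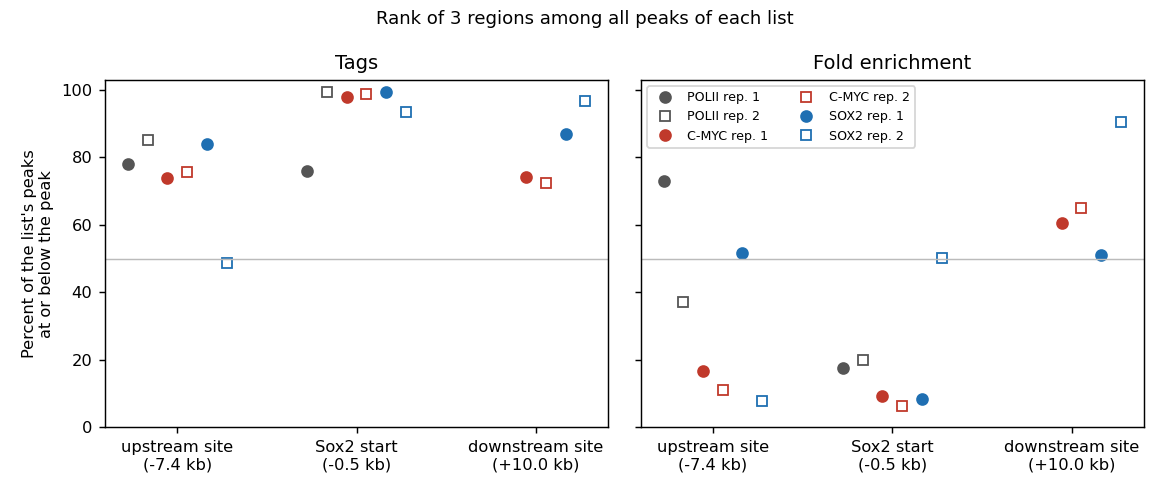
Rank of 3 regions within each list. The y axis is the percent of a list's peaks at or below the peak in tags (left) or in fold enrichment (right), for the site 7.43 kb upstream, the *Sox2* start and the site 9.996 kb downstream, with a symbol for each sample. At the start the ranks in tags run from 75.9% to 99.5% and those in fold enrichment from 6.45% to 50.2%, and at the downstream site the 4 fold enrichments rank between 51.1% and 90.4%.

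The other region called for C-MYC with no SOX2 or POLII peak lay 14.3 kb downstream. It held 130 and 162 tags, or 45.5 and 51.4 scaled tags, the second highest C-MYC value of the locus in both replicates. The peaks there were long and weakly enriched, with a fold enrichment of 5.55 and 4.36, at or above 4.02% and 0.87% of their lists. At 21.2 kb downstream C-MYC held 75 and 54 tags and SOX2 replicate 1 held 39 tags, with the 3 summits within 6 bp. SOX2 replicate 2 had no peak there. Each SOX2 replicate also had a peak near the gene that the other lacked. In SOX2 replicate 2 it lay 4.09 kb from the start, with 53 tags. In SOX2 replicate 1 it lay 7.11 kb from the start, with 136 tags and a fold enrichment of 2.70, and 39876 of the 39878 peaks of that list had a higher one. POLII was called at 37.8 kb downstream, with 33 and 143 tags and the summits 628 bp apart, and SOX2 replicate 1 held 53 tags there.

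**Figure D4:**
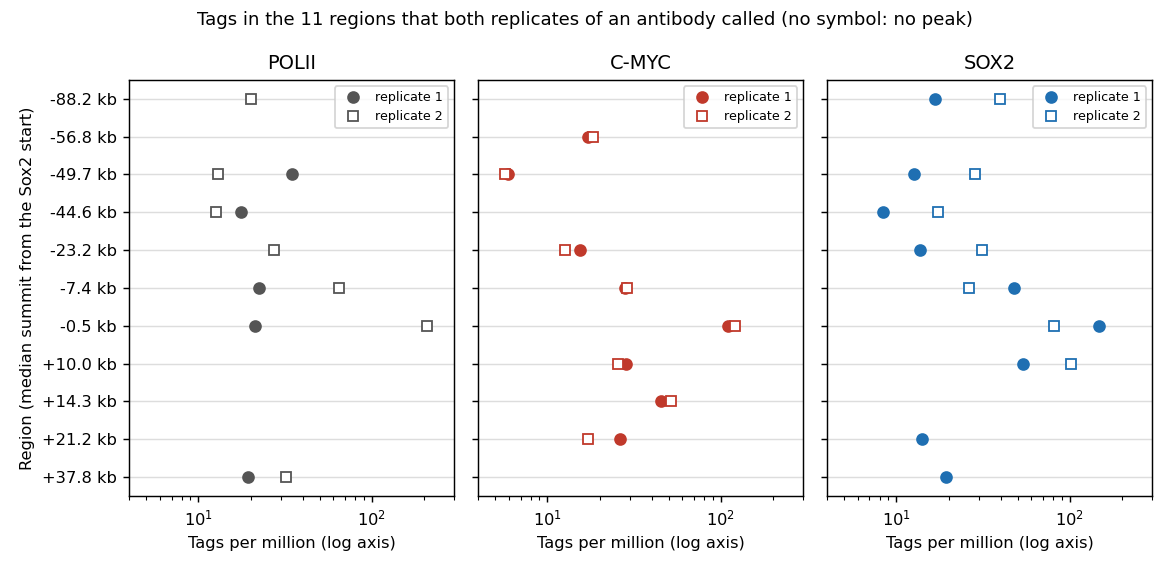
Scaled tags in the 11 regions called by both replicates of at least 1 antibody. The x axis is logarithmic, each row is a region named by its median summit from the *Sox2* start, and filled and open symbols are replicates 1 and 2. The C-MYC replicates differ by ratios of 0.653 to 1.13 in the 8 regions called for it, whereas SOX2 replicate 2 is the lower at the start and at 7.43 kb upstream and the higher in the other 5 regions called for it.

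The downstream control region, chr3:34653000-34661000, held no peak in any of the 6 lists. It starts 104 kb from *Sox2*. The stretch without peaks was longer than the region itself, and ran over 10.2 kb from 34651441 to 34661595. On its near side, C-MYC replicate 2 had a peak of 38 tags that ended 1.63 kb from the region, and POLII replicate 2 had a peak of 24 tags that ended 1.56 kb from it. On its far side, POLII replicate 1 held 31 tags in a peak 0.596 kb from the region and C-MYC replicate 2 held 17 tags in a peak 0.639 kb from it, with summits 3 bp apart. No SOX2 peak lay closer than 14.5 kb. Beyond 37.8 kb downstream there were 4 regions with 7 peaks in all, of 17 to 38 tags, and none was called for any antibody. A list names only peaks past its threshold, so weaker binding in the control region cannot be read from these data.

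The members were also compared across antibodies, as peaks that overlapped both replicates of another antibody. Of the C-MYC peaks, 5 of 10 and 5 of 11 overlapped both SOX2 replicates, against 34.9% and 33.8% of their whole lists. Of the SOX2 peaks, 6 of 13 and 5 of 9 overlapped both C-MYC replicates, against 56.5% and 67.2%. The shares of C-MYC peaks lay above those of the lists and the shares of SOX2 peaks below them, and neither difference was tested. Both POLII replicates were met by 5 of 13 and 3 of 9 SOX2 peaks (lists 11.2% and 11.1%) and by 2 of 10 and 2 of 11 C-MYC peaks (lists 8.82% and 8.61%). With POLII replicate 2 alone, the counts were 8 of 13 and 6 of 9 for SOX2 (lists 55.2% and 62.9%) and 4 of 10 and 5 of 11 for C-MYC (lists 53.4% and 51.8%). The SOX2 shares were then nearer to those of the lists, and the C-MYC shares lay below those of the lists. In turn, 2 of 9 peaks of POLII replicate 1 overlapped both C-MYC replicates and 3 of 9 both SOX2 replicates, against 9.3% and 6.12% of that list. For POLII replicate 2 the counts were 4 of 11 and 6 of 11, against 67.8% and 44.3%. The whole list of POLII replicate 2 thus met C-MYC more often than SOX2, and at the locus it met SOX2 in more peaks. With 9 to 13 peaks per list these shares are imprecise, and the 95% Wilson interval for the 4 of 11 ran from 15.2% to 64.6% and covers counting error only.

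The replicates resembled each other to different degrees at the locus. For C-MYC, 8 of 10 and 8 of 11 peaks overlapped the other replicate, against 84.6% and 81.1% of all C-MYC peaks. For SOX2, 7 of 13 and 7 of 9 peaks did, against 41.7% and 62.3%. For POLII, 5 of 9 and 5 of 11 peaks did, against 9.82% and 16.5%. In scaled tags, replicate 2 over replicate 1 ran from 0.653 to 1.13 in the 8 regions called for C-MYC. In the 7 regions called for SOX2 it ran from 0.550 to 2.39, and in the 5 regions called for POLII from 0.373 to 9.86. These ratios compare sums over peaks whose lengths differed between replicates. SOX2 replicate 2 was the higher in 5 of its 7 regions, against 65.0% of the regions called for SOX2 in the genome. For POLII the same held in 3 of 5 regions (genome 52.2%), and for C-MYC in 4 of 8 (genome 49.2%).

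Over the whole locus, the scaled tags were 177 and 445 for POLII, 295 and 312 for C-MYC, and 418 and 422 for SOX2. Both SOX2 values were above both C-MYC values, and the POLII values spanned all the others. The difference of C-MYC from SOX2 was -117 scaled tags (303 ± 11.8 against 420 ± 3.03, SD, n = 2 each, two-sided exact permutation p = 0.333), which is the smallest p that 2 against 2 samples can give. C-MYC and POLII (311 ± 189) differed by -7.81, and SOX2 and POLII by 109, each with an exact permutation p of 1.0. Without POLII replicate 1, these differences were -142 and -25.1, so that the order of SOX2 and POLII turned. The Benjamini-Hochberg adjusted p was 1.0 for all 3 differences by the exact permutation test. On another scale, the sum over peaks of fold enrichment times length in kb, C-MYC was the higher against SOX2 by 13.4, so the order of the factors depended on the measure. The gene region held 46.8% of the locus tags in POLII replicate 2 but 11.9% in POLII replicate 1, 37.1% and 39.0% for C-MYC, and 35.2% and 19.1% for SOX2.

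Compared with windows of the same 240 kb tiled along every chromosome, the locus held more peaks than the median window in every list. As many peaks were found in 2.11% and 3.67% of the windows for SOX2, in 12.5% and 10.4% for C-MYC, and in 18.8% and 4.37% for POLII. The median window held 1 to 4 peaks, with windows that held no peak counted. No comparison was made with windows around other genes, so these shares do not set the locus apart from them. As many tags were found in 3.74% and 3.02% of the windows for SOX2, 8.67% and 7.92% for C-MYC, and 15.01% and 4.02% for POLII. The next 240 kb upstream held 16 and 10 peaks for POLII, 10 and 11 for C-MYC, and 9 and 5 for SOX2. It therefore held as many peaks as the locus for C-MYC, more for POLII replicate 1, 1 fewer for POLII replicate 2 and fewer for SOX2. In the next 240 kb downstream every list held fewer peaks, 2 to 6. The member peaks held more tags than the median peak of their list in 7 to 9 cases per list, and a fold enrichment above that median in 2 to 5 cases.

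At the edges of the stretch, the outermost members were a SOX2 replicate 2 peak of 118 tags at 90.7 kb upstream and a pair of peaks at 127 kb downstream, with 27 tags in POLII replicate 1 and 22 tags in SOX2 replicate 1. Just outside, the nearest upstream peaks were those of POLII replicate 2 and both C-MYC replicates, all with summits at -117 kb from the *Sox2* start and with 17 to 21 tags. The nearest downstream was a SOX2 replicate 1 peak of 21 tags at 131 kb, whose start lay 17 bp past the limit.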

How the data were processed

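Peak lists of 6 ChIP-seq samples of iMOP cells were analysed (2 biological replicates each for POLII, C-MYC and SOX2). Per the file headers, the authors deposited for each peak its tags as raw counts, a score of 10 times the −log10 of the peak p-value, and a fold enrichment as a linear ratio over background. Peaks had been called per replicate, and GEO's processing notes name the build mm9. The aligner, filters and treatment of duplicate reads behind each list are not given in the sources used here. They could change which weak peaks are present, and the depth of reads outside peaks is unknown.

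Peaks overlapping chr3:34440000-34680000 by at least 1 bp were taken as members and merged across lists. A region was called for an antibody when both replicates had a peak in it. Tags were scaled to 1000000 tags in all peaks of a list, sums were compared by a two-sided exact permutation test over samples, and p-values were adjusted over 3 comparisons by Benjamini-Hochberg. Ranks are percentiles within a list. Genome windows of 240 kb were tiled from the chromosome starts. The regions named are *Sox2*, those called for at least 1 antibody and, of the others, that with the most tags in each list. The peaks beside the control region, at the edges and 4.09 kb downstream of the start were chosen after their values were seen. The members and lists were chosen with earlier results of these data known. Replicates of a group are separate samples by the labels, and p-values measure the spread between them. Python 3.11.15, numpy 2.4.6, pandas 2.3.3, scipy 1.17.1 and matplotlib 3.10.9 were used. Overlaps were checked against bedtools 2.31.1 and tested on simulated data. The alternatives were another overlap rule, membership by summit, fewer peaks, a call from either replicate, other scalings and measures, the replicate block and leaving out each replicate.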

Additional observations from a re-analysis of the deposited data

How the results depend on the processing

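Of 120 recomputed values, 7 reversed in direction, 14 counts or shares moved beyond the limits set for them (1.5 times for a count, the 95% interval for a share) and 99 did neither. The 99 include the differences under the replicate block, which could not change. They also include membership by summit and counts for an antibody with a replicate of another left out, which had little room to change. The 99 are therefore not a measure of stability. For the differences in scaled tags only the direction was judged, and several sizes changed widely. C-MYC against POLII, -7.81 as reported, was -70.3 with the 50% of highest score, -87.8 with the same number of peaks and -0.0289 without chromosome 6, and SOX2 against POLII, 109 as reported, was 32.1 with the 50% of highest score. The share of POLII replicate 1 peaks overlapped by the other replicate was 55.6% as reported, 28.6% with the 50% of highest score and 71.4% with the same number of peaks, all within its interval. With the 50% of each list with the highest score, 30 peaks were left at the locus, in 14 regions instead of 25, and 2 regions were called for POLII, 4 for C-MYC, 2 for SOX2, 2 for both C-MYC and SOX2 (the gene and the site 9.996 kb downstream) and 1 for all 3 antibodies (the gene). All peaks of C-MYC replicate 2 left (100%) then overlapped the other replicate. With 26637 peaks from every list, 4 regions were called for C-MYC. A peak of either replicate gave 15 regions for POLII, 13 for C-MYC and 15 for SOX2. Leaving out each replicate gave 5 to 11 regions for POLII (11 without POLII replicate 1, 9 without POLII replicate 2) and 7 to 13 for SOX2 (13 without SOX2 replicate 2). The difference in scaled tags ran from -142 to 126 for C-MYC against POLII and was 0.499 without C-MYC replicate 1. For SOX2 against POLII it ran from -25.1 to 243, and -25.1 was the value without POLII replicate 1. In raw tags SOX2 against POLII was -197.0. By fold enrichment times length in kb, the differences were 13.4 for C-MYC against SOX2, 8.67 for C-MYC against POLII and -4.77 for SOX2 against POLII. With a replicate of an antibody left out, or a peak of either replicate enough, a call needed only 1 peak. Those counts of regions could therefore not fall. The cause of the other changes was not tested. C-MYC stayed below SOX2 in scaled tags without each replicate in turn (-125 to -108). This direction could not change, since both SOX2 values lay above both C-MYC values, and it is no sign of stability.

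Whether samples with the same replicate number were paired across antibodies could not be settled here. Over the 2599 regions with a peak in all 6 lists, the correlation of replicate differences was -0.0350 for POLII and C-MYC, -0.589 for POLII and SOX2 and 0.0386 for C-MYC and SOX2. A replicate block cannot change a difference of means, so only the p could differ. For the differences of -117, -7.81 and 109 the exact sign-flip p were 0.5, 1.0 and 1.0. With crossed numbers, an alternative chosen after seeing the data, the exact sign-flip p were 0.5, 1.0 and 1.0. The smallest p these pairings allow is 0.5. Peaks weaker than the threshold of a list cannot be seen and the lists differ in their numbers of tags, which limits the counts.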
